A study of Homo sapiens with 62 samples.

Results

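The genes described here are 10 members of the WNT signalling pathway, of 29794 genes in the deposited SLAM-seq tables, followed in 2 human pancreatic ductal adenocarcinoma cell lines. They are the antagonists DKK1, AXIN2, RNF43 and ZNRF3, the ligands WNT7A, WNT7B and WNT10A, the polarity effector DAAM1 and the nuclear factors LEF1 and TCF7L2. They were taken by gene symbol, and each symbol matched 1 row in the tables of both lines. They were chosen by pathway and by measured values of these data, namely the changes of DKK1 and DAAM1 in T3M-4 cells given the CDK9 inhibitor NVP-2 or the KLF5 degrader. Values from those comparisons in T3M-4 are therefore given as a description, with no p-value, and counts of calls there stand beside the share of all genes called with nothing read from them.

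WNT ligands are secreted lipid-modified proteins that bind Frizzled receptors and LRP co-receptors, which halts the destruction of β-catenin and lets it join TCF and LEF factors at target genes. The pathway restrains itself at several levels. DKK1 is secreted and blocks the LRP co-receptors, RNF43 and ZNRF3 are membrane ubiquitin ligases that remove Frizzled from the cell surface, and AXIN2 is a scaffold of the β-catenin destruction complex and a commonly used readout of the pathway. DAAM1, a formin, links Dishevelled to RHOA in the branch that controls cell polarity without β-catenin, and RNF43 is frequently mutated in mucinous pancreatic tumours.

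The study measured newly made RNA with SLAM-seq in AsPC-1, a line of the classical subtype, and T3M-4, a line of the basal-like subtype. All cells, controls included, carried the genotype FKBP12-F36V-FLAG-KLF5_sgEndogenousKLF5, in which the transcription factor KLF5 is made only as a fusion that the degrader dTAGv-1 can remove and the endogenous gene has been knocked out. Cells received dTAGv-1 (dTAG) or its inactive control dTAGv-1-NEG (NEG), the RUVBL1/2 ATPase inhibitor CB-6644, NVP-2, or the solvent DMSO for 4 h, and in AsPC-1 also CB-6644 or DMSO for 12 h. The AsPC-1 libraries comprised 10 with dTAG, 10 with NEG, 5 each of CB-6644 and DMSO at 4 h, and 4 each of NVP-2 and of CB-6644 and DMSO at 12 h. T3M-4 had 4 libraries of each of its 5 treatments. Experiment below means the digit before the point in the replicate number of a library. The labels do not call it an experiment, so this reading is an inference. The engineered cells of each line were a selected population, 1 line stood for each subtype, and the fusion acts at the level of protein, so RNA does not check the degradation. Cells were given 4-thiouridine for 2 h before harvest, and reads with the T>C conversions it leaves (T>C reads) are taken as RNA made in that time. No library without 4-thiouridine was used here, so T>C reads from other sources, such as sequencing errors, were not measured. T>C levels are given below as CPM, T>C counts scaled to library size within each line (T>C CPM). The labelled share is the percent of all reads of a gene that carry conversions.

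Each AsPC-1 library held 8296433 to 18311982 T>C reads, or 2240998 to 3517345 with NVP-2. Each T3M-4 library held 13562612 to 27982537, or 3714015 to 4982006 with NVP-2. All reads came to 82676553 to 200298262 per AsPC-1 library and 111132257 to 244524608 per T3M-4 library. The all-reads column of AsPC-1 dTAG replicate 3.1 repeated the T>C column of another library and was not used. In the DMSO libraries at 4 h all 6 basal-like markers were higher in T3M-4 (TP63, KRT5, KRT17, KRT6A, S100A2 and KRT4), and 4 of 7 classical and 3 of 5 epithelial markers were higher in AsPC-1. Markers of leukocytes, endothelium and stroma (PTPRC, PECAM1, COL1A1, ACTA2, PDGFRB) summed to 0.199 to 0.501 CPM of all reads in the AsPC-1 libraries and 8.14 to 12.5 CPM in those of T3M-4, where COL1A1 supplied 5.68 to 8.91 CPM and PTPRC and PDGFRB were near 0. Here and below, in bulk libraries, fewer cells making a transcript and less RNA per cell cannot be told apart.

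Sequence around the transcription start was available for 7 of the 10 members (RefSeq, GRCh38.p14, 250 bases before to 50 after each annotated start, 11 windows). The windows were searched on both strands for the letters CTTTGA (reverse complement TCAAAG), the core that TCF and LEF factors recognise, and for CCNCNCCC (reverse complement GGGNGNGG), the core of the GC boxes that KLF factors recognise. The TCF/LEF letters stood in 12.9% of 35116 promoter windows and in 1 of the 11 member windows, that of DKK1, which held them at 2 places. They are shown because the largest log2 changes of any member below, under NVP-2, are those of DKK1, with the matched letters in capitals.
DKK1, TCF/LEF letters 149 bases before the start (chr10:52314120-52314149, plus strand): gggtgaagagtgTCAAAGgccccccttcat
DKK1, TCF/LEF letters 95 bases before the start (chr10:52314174-52314203, plus strand): cccctcccagcgCTTTGAaatcccatcccg
The KLF letters were common, in 56.2% of all windows and in 9 of the 11 member windows. The match nearest the start is shown for the 4 members with a promoter entry whose dTAG or NVP-2 values are described most fully below, with the KLF letters in capitals.
DKK1, 107 bases before the start (chr10:52314163-52314192, plus strand): ccccctcccagCCCCTCCCagcgctttgaa
DAAM1, 203 bases before the start (chr14:59188453-59188482, plus strand): cgggtcctgaaGGGGGCGGgaataagaggc
WNT7A, 47 bases before the start (chr3:13880100-13880129, minus strand): aaaggagggagGGGCGGGGgctggaggcag
WNT10A, 57 bases before the start (chr2:218880784-218880813, plus strand): ttcaccccccgCCCCCCCCgagggcggtgc
The DKK1 window held 4 KLF matches, the WNT7A window 9, the WNT10A window 3, and the pair of DAAM1 windows 3 and 0. The TCF/LEF and KLF matches of DKK1 shared no bases. A match describes letters in the window and not a bound site.

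Reads were counted over annotated 3′ untranslated exons of hg38 (GENCODE v44), so each value refers to the 3′ end of the transcript. Counts were summed over all annotated 3′ untranslated exons of a gene. The positions below are only those of its canonical transcript. For DKK1 (ENSG00000107984.10, chr10:52314281-52318042, plus strand) this exon was chr10:52316805-52317657, and for DAAM1 (ENSG00000100592.16, chr14:59188646-59371405, plus strand) it was chr14:59368857-59371403. The ligand exons were chr3:13816258-13818946 for WNT7A, chr22:45920366-45922858 for WNT7B and chr2:218893269-218893928 for WNT10A. Those of the other antagonists were chr17:65528563-65529978 for AXIN2, chr17:58353676-58354945 for RNF43 and chr22:29053620-29057488 for ZNRF3. That of TCF7L2 was chr10:113165970-113167678, and LEF1 had 2 such exons within chr4:108047548-108063631.

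Before any comparison, the AsPC-1 libraries differed among themselves in WNT10A, AXIN2, RNF43 and ZNRF3 in a way that followed replicate numbers and not treatment. WNT10A in all reads stood at 0.468 and 0.615 CPM in NEG replicates 3.1 and 3.2 and at 6.41 and 5.53 CPM in NEG replicates 3.3 and 3.4. AXIN2 had 13.8 and 8.46 T>C CPM in the first pair and 2.76 and 5.48 in the second. At 12 h the same opposition separated numbers 1 and 2 from 3 and 4: AXIN2 was at 15.2, 12.1, 2.46 and 5.23 T>C CPM in the 4 DMSO libraries and at 13.2, 12.7, 2.71 and 1.59 with CB-6644. ZNRF3 was ordered like AXIN2, at 40.1, 28.7, 25.2 and 23.9 with DMSO at 12 h and 36.6, 44.8, 17.4 and 16.6 with CB-6644. RNF43 was ordered the other way with DMSO, at 17.9, 21.9, 28.5 and 28.1. With CB-6644 it was at 26.7, 17.3, 28.7 and 27.4, replicate 1 lying near replicates 3 and 4. In experiment 3 NEG replicates 3.1 to 3.4 had 20.3, 19.3, 30.2 and 29.7 T>C CPM of RNF43 and 37.6, 37.7, 16.5 and 26.1 of ZNRF3. In NEG of experiment 3, AXIN2 and ZNRF3 were thus low where WNT10A and RNF43 were high. In NEG replicates 1.1 to 1.4 AXIN2 was at 17, 17, 7.15 and 10.3 T>C CPM. ZNRF3 was not ordered like it there, at 27.8, 42.3, 28.7 and 29.8. The spread of these genes in AsPC-1 includes this difference, whose part in their treatment values was not tested.

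**Figure D1:**
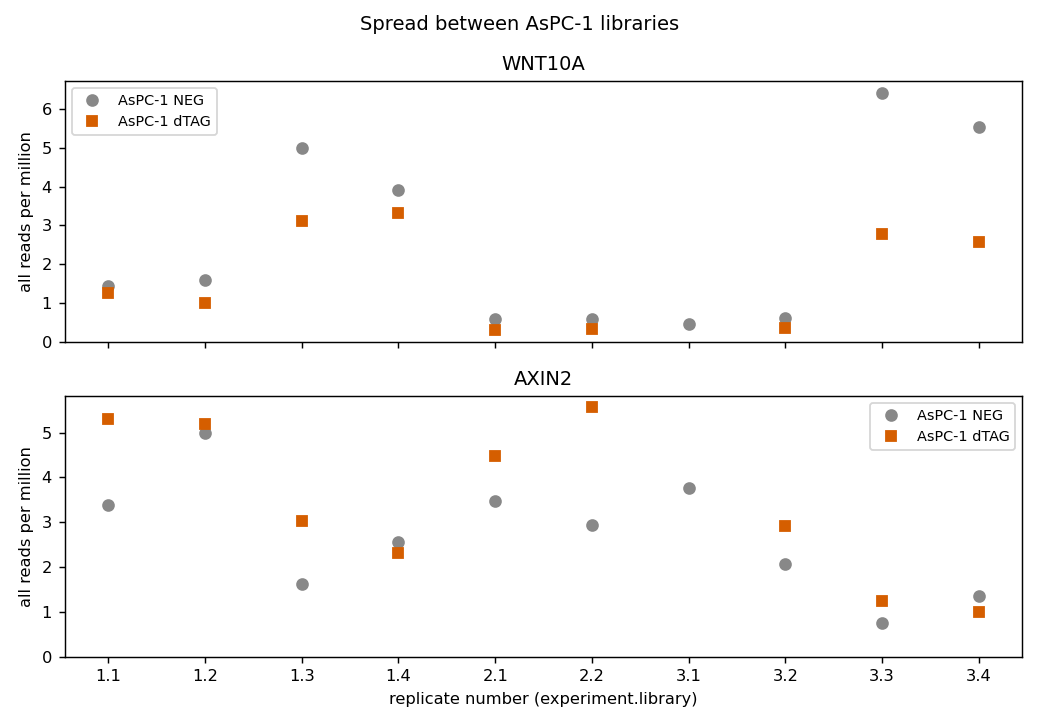
All-reads CPM of WNT10A and AXIN2 in each AsPC-1 NEG and dTAG library, by replicate number (dTAG 3.1 has no all-reads value). Within experiment 3, NEG replicates 3.3 and 3.4 have WNT10A near 6 CPM and replicates 3.1 and 3.2 below 1 CPM, and AXIN2 is ordered the other way.

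In DMSO at 4 h the lines differed in 4 of the 9 members tested on T>C reads, where 48.4% of 13044 genes did (edgeR quasi-likelihood test, Benjamini-Hochberg adjustment over all genes tested). DAAM1 and WNT7A were higher in T3M-4, and AXIN2 and TCF7L2 were higher in AsPC-1. In all reads 5 of 10 members passed, against 55.7% of 15464 genes, LEF1 being the additional gene. The members' shares lay near those of all genes. WNT7A and AXIN2, however, passed the filter on low counts through 1 line alone, as did LEF1 in all reads. Their calls were largely fixed by the filter, and only their levels are given. The test compares 1 line with 1 line, and the AsPC-1 libraries were all of batch 1 while T3M-4 had both batches.

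WNT7A was found in T3M-4 and was near 0 in AsPC-1. Its 4 T3M-4 DMSO libraries held 15.2, 24.5, 28.9 and 27.3 T>C CPM, and no AsPC-1 library of any treatment held more than 3 WNT7A T>C reads, a count of 0 itself allowing up to 3 reads. WNT7B, a ligand of the same subgroup, was present in both lines, at 36.6, 41.4, 33.1, 50.9 and 50.5 T>C CPM in AsPC-1 and 40.6, 35, 71.5 and 77.8 in T3M-4, and the difference did not pass (0.54 ± 0.26 on the log2 scale, T3M-4 minus AsPC-1, adjusted p = 0.108, edgeR). WNT10A was scarce in both, at 1.88, 2.74, 1.53, 0.353 and 0.891 against 2.58, 1.83, 2.9 and 3.4 T>C CPM (0.98 ± 0.53, adjusted p = 0.147).

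Of the antagonists, AXIN2 was made in AsPC-1, at 8.57, 16.6, 3.67, 8.91 and 7.53 T>C CPM, and barely in T3M-4, at 0.872, 0.445, 0 and 0.392, from 0 to 23 T>C reads per library. DKK1 did not pass, with 143, 115, 209, 181 and 175 T>C CPM in AsPC-1 and 173, 195, 132 and 139 in T3M-4 (0.092 ± 0.20, adjusted p = 0.736). RNF43 stood at 25.7, 20.2, 38.6, 17.3 and 18.2 in AsPC-1 against 23.6, 22.7, 26 and 22.4 in T3M-4, and ZNRF3 at 23.3, 28.1, 22.4, 33.3 and 27.3 against 22.4, 25.6, 35.7 and 40.5. Neither ubiquitin ligase passed the test (log2 differences of 0.12 ± 0.25 and 0.34 ± 0.22). The labelled share of DKK1 was 42.6% ± 4.46 (SD, n = 5) in AsPC-1 and 69.9% ± 2.33 (SD, n = 4) in T3M-4, each library of T3M-4 being above each of AsPC-1. All genes together had shares of 10.1% and 12.4%.

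DAAM1 and TCF7L2 differed in opposite directions. DAAM1 had 487, 393, 398 and 469.7 T>C CPM in T3M-4 and 90.1, 94.6, 138, 158 and 191 in AsPC-1, a log2 difference of 1.84 ± 0.23 (adjusted p = 7.58e-05, edgeR). TCF7L2, the main TCF factor of intestinal epithelium, had 185, 175, 177 and 177 in T3M-4 and 902, 749.8, 928, 644 and 540.2 in AsPC-1 (−1.94 ± 0.19, adjusted p = 1.23e-05). For both genes the lines did not overlap. LEF1, a factor that many cells switch on when the pathway is active, had no T>C read in any of the 5 AsPC-1 libraries and 11, 14, 1 and 20 in the 4 of T3M-4, too few for the filter on low counts. In all reads LEF1 had 7, 12, 10, 4 and 3 in AsPC-1 and 37, 60, 38 and 48 in T3M-4. Over all treatments LEF1 had 0 to 12 T>C reads per library in AsPC-1 and 0 to 37 in T3M-4, so its newly made RNA is not followed further.

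The comparison of dTAG with NEG asked what newly made RNA does after loss of KLF5. In AsPC-1, 8 members passed the filter on low counts (WNT7A and LEF1 did not), and 2 changed, DKK1 upward and WNT7B downward, where 2.4% of 11696 genes were called. The median log2 change of the 8 was 0.039 against 0.028 over all genes tested. With the replicate number as a block the same count of 2 members was reached, among 867 called genes in place of 281.

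DKK1 ranged from 142 to 414 with a median of 229.6 T>C CPM over 10 dTAG libraries and from 109 to 160.2 with a median of 133 over 10 NEG libraries. Of the dTAG libraries 8 lay above every NEG library. The log2 change was 0.89 ± 0.17 (1.86-fold, adjusted p = 0.00413, edgeR), and in all reads it was 0.80 ± 0.15 (adjusted p = 0.0117). The ratio of the group means was 1.53 in experiment 1, 1.36 in experiment 2 and 2.32 in experiment 3, so the direction was shared and the size was not. The call held without experiment 2 (0.97 ± 0.19, adjusted p = 0.00605) and was lost otherwise: without experiment 1 the change was 1.04 ± 0.23 (adjusted p = 0.0875), in batch 1 alone, which is the data without experiment 3, 0.57 ± 0.14 (adjusted p = 0.0979), and in batch 2 alone 1.2 ± 0.19 (adjusted p = 0.0525).

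WNT7B ranged from 12.3 to 43.3 with a median of 22.9 T>C CPM with dTAG and from 33.5 to 59.2 with a median of 37.8 with NEG. Again 8 of 10 dTAG libraries lay outside the NEG range, here below it. The log2 change was −0.75 ± 0.19 (0.595-fold, adjusted p = 0.0365), and the ratios within experiments were 0.649, 0.717 and 0.438. It too stayed called without experiment 2 (−0.87 ± 0.15, adjusted p = 0.0035) and was no longer called without experiment 1 (−0.84 ± 0.30, adjusted p = 0.424), in batch 1 alone (−0.56 ± 0.20, adjusted p = 0.299) or in batch 2 alone (−1.2 ± 0.22, adjusted p = 0.080). In all reads the WNT7B change was −0.62 ± 0.20 and did not pass (adjusted p = 0.271). Dividing by the total of all reads in place of T>C reads moved the median of all genes by −0.24 and left both calls in place, at 0.63 ± 0.18 for DKK1 and −0.97 ± 0.21 for WNT7B, and added that of WNT10A (−1.81 ± 0.56, adjusted p = 0.04999).

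The scarce ligand WNT10A had the lowest fitted value, −1.68 ± 0.55, which did not pass (adjusted p = 0.126) other than under DESeq2 and when scaled by all reads. It rested on 0 to 18 T>C reads per dTAG library and 7 to 59 per NEG library, and 4 of the 10 dTAG libraries lay below every NEG library. AXIN2 ranged from 4.45 to 26.6 with a median of 14.9 with dTAG and from 2.76 to 17 with a median of 11.2 with NEG (0.46 ± 0.34, adjusted p = 0.706). Its range covered the difference between replicate numbers described above. RNF43 (9.17 to 36.3 against 18 to 35.6 T>C CPM) and ZNRF3 (12.8 to 58.3 against 16.5 to 43.9) overlapped widely, with log2 changes of −0.21 ± 0.20 and 0.10 ± 0.22. DAAM1 lay from 111 to 163 with a median of 137 with dTAG and from 101 to 148 with a median of 129.9 with NEG (0.081 ± 0.09, adjusted p = 0.832). TCF7L2 lay from 546 to 931 with a median of 674 and from 482 to 946 with a median of 666 (−0.0033 ± 0.13, adjusted p = 0.997).

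**Figure D2:**
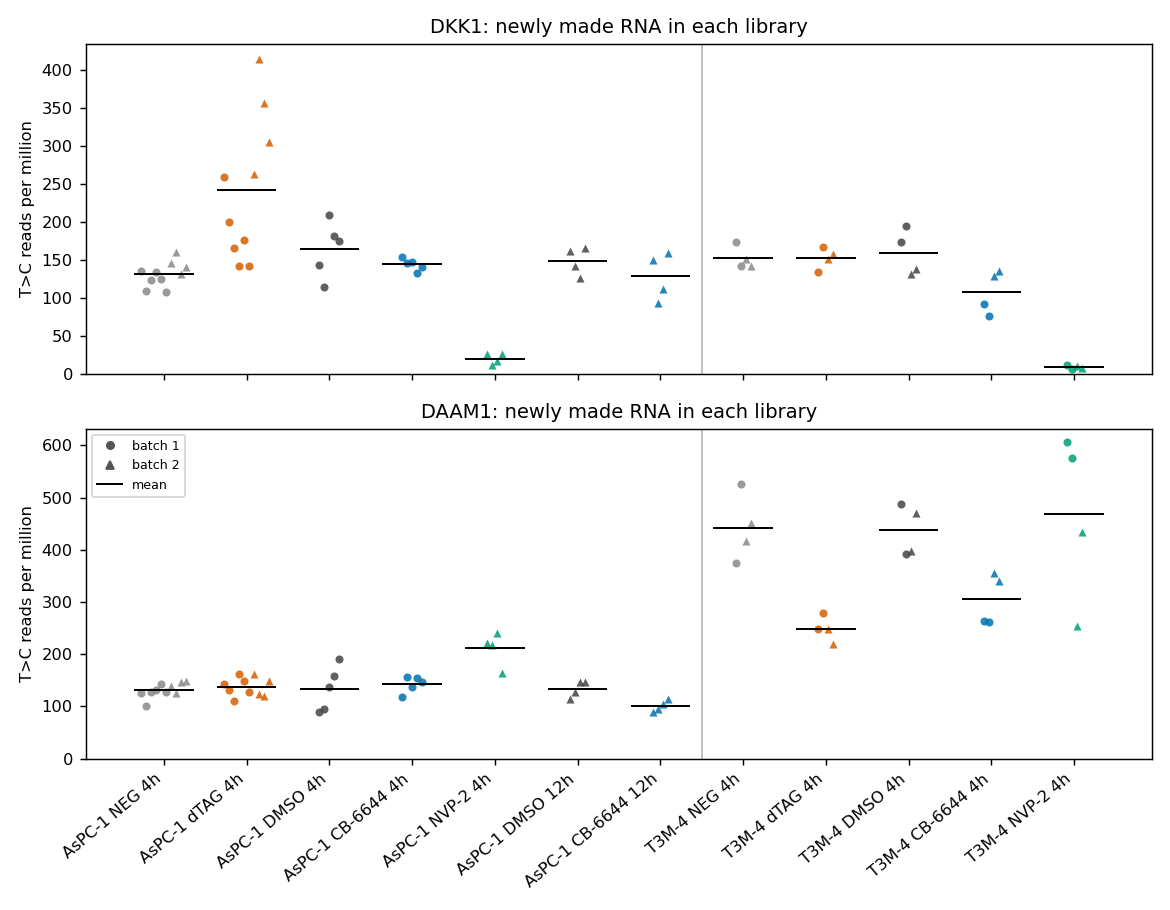
T>C CPM of DKK1 and DAAM1 in every library of the 12 groups (circles are batch 1, triangles batch 2, black lines group means). DKK1 lies near 243 T>C CPM with dTAG in AsPC-1 and below 27 in every NVP-2 library, and DAAM1 in T3M-4 lies between 219.8 and 279 with dTAG and between 375 and 526 with NEG.

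In T3M-4 the members stood otherwise after dTAG, and this is a comparison that the choice of genes used. DAAM1 held 248, 279, 248 and 219.8 T>C CPM with dTAG and 375, 526, 416 and 452 with NEG, a log2 difference of −0.84 ± 0.17 (0.559-fold). All dTAG libraries lay below all NEG libraries, with ratios of 0.586 and 0.539 in the 2 experiments. DKK1, the other gene named in the choice, held 134, 167, 152 and 158 with dTAG and 174, 142, 152 and 143 with NEG, so its groups overlapped (−0.01 ± 0.16). The DKK1 value used in the choice is thus that under NVP-2.

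The ligand values in T3M-4 were as follows. WNT7A held 3.61, 6.68, 6.5 and 6.85 T>C CPM with dTAG and 30.7, 19, 20.9 and 23.1 with NEG (−2.0 ± 0.27, 0.25-fold), with ratios of 0.207 and 0.303 within experiments and 87 to 208 against 297 to 884 T>C reads. WNT7B held 39.2, 34, 36.2 and 47.6 against 44.2, 60.3, 70.1 and 81.4 (−0.72 ± 0.22), and 3 of its 4 dTAG libraries lay below every NEG library. WNT10A held 8, 12, 22 and 0 T>C reads with dTAG and 70, 77, 25 and 35 with NEG (−2.39 ± 0.91). The dTAG and NEG libraries did not overlap in CPM for WNT7A and WNT10A.

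The membrane ligase RNF43 stood the other way, at 37.4, 29.6, 36.4 and 34.7 T>C CPM with dTAG and 27.8, 20.7, 23.6 and 23.8 with NEG (0.52 ± 0.18), and these groups did not overlap. ZNRF3, at 28.7, 30.9, 43.5 and 65 against 30.7, 35.6, 50.1 and 53.6 (−0.028 ± 0.29), and TCF7L2, at 189, 193, 232 and 218 against 154, 174, 199 and 201 (0.18 ± 0.17), overlapped. AXIN2, at 0 to 1.34 T>C CPM in the T3M-4 libraries of all treatments, and LEF1 did not pass the filter on low counts. The leukocyte, endothelial and stromal markers summed to 6.02 to 10.0 CPM of all reads with dTAG and 8.76 to 11.2 with NEG. Of the 8 members that passed the filter, 1 was called, where 0.834% of 13424 genes were, and 2 were called with the replicate number as a block. As the choice used this comparison, nothing is read from the count. The members' median was −0.37 and that of all genes 0.0069.

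Side by side, WNT7B was at −0.75 ± 0.19 in AsPC-1 and −0.72 ± 0.22 in T3M-4, a difference of 0.055 ± 0.33 (T3M-4 minus AsPC-1, log2 scale). For DKK1 the lines differed by −0.88 ± 0.29, for DAAM1 by −0.90 ± 0.17 and for RNF43 by 0.75 ± 0.33. These differences were not tested, since the T3M-4 values took part in the choice.

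**Figure D3:**
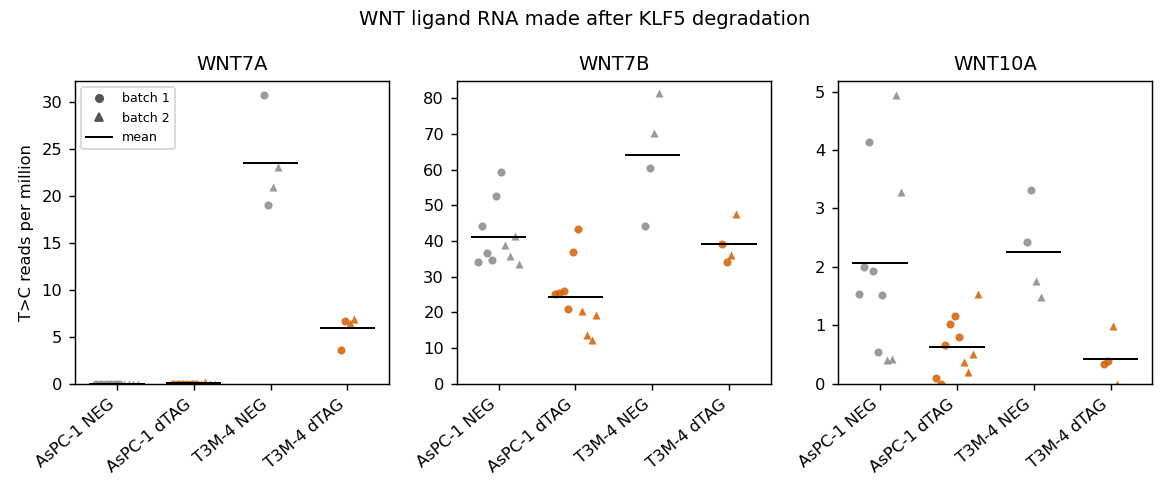
T>C CPM of the ligand genes WNT7A, WNT7B and WNT10A in the dTAG and NEG libraries of AsPC-1 and T3M-4 (points are libraries, circles batch 1, triangles batch 2, black lines group means). In T3M-4 the 4 dTAG libraries of WNT7A lie between 3.61 and 6.85 and the 4 NEG libraries between 19 and 30.7, and AsPC-1 shows no level of this gene.

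CB-6644 inhibits the ATPases RUVBL1 and RUVBL2, and its comparison with DMSO asked whether newly made RNA responds to it. No gene passed the edgeR test in AsPC-1 at 4 h (0% of 11649), in T3M-4 at 4 h (0% of 13444) or in AsPC-1 at 12 h (0% of 12204), members included. At an unadjusted p under 0.05 there were 482, 569 and 473 genes, of which 0, 3 and 1 were members. DESeq2 called 0, 5 and 20 genes and no member. The values of the members are thus given with tests that did not pass. The fits at 4 h pooled experiments with no term for experiment. In T3M-4 with DMSO, WNT7B had means of 37.8 and 74.7 T>C CPM in experiments 1 and 2. Those of DKK1 were 184 and 135. Such differences are part of the spread in these fits, so the lack of calls does not show that newly made RNA was unchanged. The paper reports that the inhibitor suppressed direct targets of KLF5 in SLAM-seq.

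In T3M-4, DAAM1 had 264, 261, 356 and 341 T>C CPM with CB-6644 and 487, 393, 398 and 469.7 with DMSO, and the groups did not overlap (−0.51 ± 0.18, adjusted p = 0.994, edgeR). The ratios within experiments were 0.596 and 0.803. In AsPC-1 at 12 h DAAM1 had 90.1, 94.5, 105 and 113 against 114, 127, 147 and 147, with the nearest libraries at 113 and 114 (−0.40 ± 0.17, adjusted p = 0.998, edgeR). Here and elsewhere, the share of all genes whose groups do not overlap was not counted. At 4 h in AsPC-1 DAAM1 had 118, 156, 138, 154 and 147 against 90.1, 94.6, 138, 158 and 191, which overlapped (0.10 ± 0.21). The difference between the lines at 4 h was −0.62 ± 0.29 and no gene of 13963 passed its test (edgeR interaction term, adjusted p of 1.00 for DAAM1).

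DKK1 in T3M-4 had 92.7, 76.1, 129 and 135 T>C CPM with CB-6644 and 173, 195, 132 and 139 with DMSO (−0.56 ± 0.23, adjusted p = 0.994, edgeR). In AsPC-1 it had 154, 146, 147, 133 and 141 against 143, 115, 209, 181 and 175 at 4 h (−0.18 ± 0.16), and 150.1, 93.7, 112 and 159 against 162, 142, 126 and 166 at 12 h (−0.21 ± 0.21). The groups overlapped at both AsPC-1 times and in T3M-4. ZNRF3 in T3M-4 had 30.2, 39.99, 64.9 and 61.3 against 22.4, 25.6, 35.7 and 40.5 (0.67 ± 0.29, adjusted p = 0.994). The other members in the 3 comparisons lay between −0.49 ± 0.29 (WNT7A, T3M-4) and 0.63 ± 0.36 (AXIN2, AsPC-1 at 4 h), and the members' medians were 0.16, 0.21 and −0.17 against −0.0054, 0.0031 and −0.010 over all genes.

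NVP-2 inhibits CDK9, the kinase that releases paused RNA polymerase II, and its comparison with DMSO asked which RNAs still gain label without it. Over the whole libraries the labelled share was 1.57% ± 0.24 (SD, n = 4) in AsPC-1 and 2.24% ± 0.42 (SD, n = 4) in T3M-4 with NVP-2, against 10.1% ± 0.62 (SD, n = 5) and 12.4% ± 1.56 (SD, n = 4) with DMSO. T>C CPM therefore compares a gene with the rest of a much smaller labelled pool. T>C reads from other sources may be part of what is left with NVP-2, and their share was not measured. Dividing by the total of all reads instead moved the median log2 change of all genes by −3.21 (AsPC-1) and −2.97 (T3M-4). In AsPC-1 the NVP-2 libraries were all of batch 2 and the DMSO libraries at 4 h all of batch 1, so batch and treatment cannot be told apart there. The leukocyte, endothelial and stromal markers, summed over all reads, were at 0.470 to 1.05 CPM with NVP-2 and 0.199 to 0.501 with DMSO in AsPC-1, and their part in the values was not tested.

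On the T>C CPM scale, 3 of the 8 AsPC-1 members that passed the filter changed, where 30.5% of 11498 genes did, DKK1 and WNT7B downward and TCF7L2 upward. Scaled by all reads, 0 were higher and 8 of 8 lower, at a shifted median of all genes of −3.26. The members' median was −0.36 and that of all genes −0.052. In T3M-4 2 of 8 were called, both lower, where 26.7% of 12242 genes were called, and 8 of 8 lower when scaled by all reads. The T3M-4 comparison was used in the choice and nothing is read from its count.

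DKK1 kept little label in either line. In AsPC-1 it held 26, 12.1, 17.4 and 25.8 T>C CPM with NVP-2 and 143, 115, 209, 181 and 175 with DMSO, a log2 change of −2.95 ± 0.31 (0.129-fold, adjusted p = 7.26e-05, edgeR). With controls of the same batch the change was −2.73 ± 0.30 against NEG of experiment 3 and −2.79 ± 0.32 against DMSO at 12 h. Its labelled share was 1.46, 1.45, 0.741 and 1.33% with NVP-2 and 45.1, 44.3, 47.7, 38.8 and 37.1% with DMSO (log2 odds change −5.91 ± 0.27, adjusted p = 4.88e-07, limma), against a median of −3.4 over the tested genes. In T3M-4 it held 12, 6.46, 10.1 and 7.83 T>C CPM and 173, 195, 132 and 139 (−4.09 ± 0.33, 0.0589-fold), with shares of 2.28, 2.17, 3.0 and 2.29% and 72.7, 69.5, 67.1 and 70.2%. No NVP-2 library came near a DMSO library in either line. In all reads, which include RNA made before the label, the AsPC-1 change was −0.79 ± 0.29 and did not pass (adjusted p = 0.103), and the T3M-4 value was −2.12 ± 0.33.

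WNT7B also had lower libraries with NVP-2 in both lines. It held 4.26, 24.2, 13.1 and 18.3 T>C CPM with NVP-2 and 36.6, 41.4, 33.1, 50.9 and 50.5 with DMSO in AsPC-1 (−1.44 ± 0.41, adjusted p = 0.0208), and its groups did not overlap. The AsPC-1 call was lost with NEG of experiment 3 as the control (−1.22 ± 0.44, adjusted p = 0.0606) and without DMSO replicate 2.2 (adjusted p = 0.0501). In T3M-4 it held 18.8, 14.5, 10.8 and 11.7 against 40.6, 35, 71.5 and 77.8 (−1.97 ± 0.39). WNT7A in T3M-4 held 12.6, 11.8, 1.12 and 8.7 against 15.2, 24.5, 28.9 and 27.3 (−1.43 ± 0.59), also without overlap. WNT10A rested on 0, 0, 1 and 9 T>C reads with NVP-2 in AsPC-1 and 0, 3, 5 and 0 in T3M-4, too few to place it.

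TCF7L2 and DAAM1 had higher group means with NVP-2 on the T>C CPM scale, though in T3M-4 not in both experiments. TCF7L2 held 1227, 807, 1199.9 and 1617 T>C CPM with NVP-2 and 902, 749.8, 928, 644 and 540.2 with DMSO in AsPC-1 (0.75 ± 0.25, adjusted p = 0.0355), and 566, 449.9, 41.4 and 234 against 185, 175, 177 and 177 in T3M-4 (0.90 ± 0.58). DAAM1 held 221, 218, 242 and 165 against 90.1, 94.6, 138, 158 and 191 in AsPC-1 (0.72 ± 0.26, adjusted p = 0.0511), and 607, 577, 254 and 435 against 487, 393, 398 and 469.7 in T3M-4 (0.14 ± 0.30). In T3M-4 the ratio of NVP-2 to DMSO was 2.82 in experiment 1 and 0.779 in experiment 2 for TCF7L2, and 1.34 and 0.793 for DAAM1, and replicate 2.1 was the lowest for both. Scaled by all reads the direction turned: TCF7L2 was at −2.50 in AsPC-1 and −1.89 in T3M-4, and DAAM1 at −2.45 and −2.75, each above the median of all genes. The AsPC-1 call of TCF7L2 was lost without NVP-2 replicate 1.1, 2.1 or 2.2, without DMSO replicate 1.2, 2.1 or 2.2 (adjusted p from 0.058 to 0.103), and without the filter on low counts (0.0712).

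Scaled to all reads of the library, the T>C reads left with NVP-2 spread over more than 10-fold among the members. In AsPC-1 they came to 1.4% of the DMSO mean for DKK1, 3.86% for WNT7B, 6.81% for ZNRF3, 7.39% for AXIN2, 8.99% for RNF43, 17.7% for TCF7L2 and 18.2% for DAAM1, around a median of 10.3% over the genes tested. In T3M-4 they came to 0.706% for DKK1, 3.5% for WNT7B, 5.37% for WNT7A, 5.58% for RNF43, 11.4% for ZNRF3, 14.9% for DAAM1 and 27.1% for TCF7L2, around a median of 11.7%. DKK1 and WNT7B were below the median gene in each line, and in T3M-4 in each experiment (0.715% and 0.691% for DKK1, 6.37% and 1.6% for WNT7B, at medians of 13.2% and 8.39%). The T3M-4 values of DKK1 and DAAM1 took part in the choice of genes and are a description. DAAM1 and TCF7L2 were above the median gene in AsPC-1 and in T3M-4 experiment 1 (19.6% and 40.9%). In experiment 2 they were close to it (8.58% and 8.74%). Of the antagonists in between, RNF43 held 5.54, 19.6, 27.2 and 28.4 T>C CPM in AsPC-1 against 25.7, 20.2, 38.6, 17.3 and 18.2 against 7.62, 19.6, 5.6 and 0.435 in T3M-4 against 23.6, 22.7, 26 and 22.4. ZNRF3 held 9.81, 37.3, 7.51 and 10.7 against 23.3, 28.1, 22.4, 33.3 and 27.3 in AsPC-1, and without NVP-2 replicate 1.2, the highest of the 4, its change went from −0.64 ± 0.45 to −1.47 ± 0.31 and passed (adjusted p = 0.00661). AXIN2 held 6.82, 10.7, 3.75 and 2.52 against 8.57, 16.6, 3.67, 8.91 and 7.53 in AsPC-1 (−0.52 ± 0.54).

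**Figure D4:**
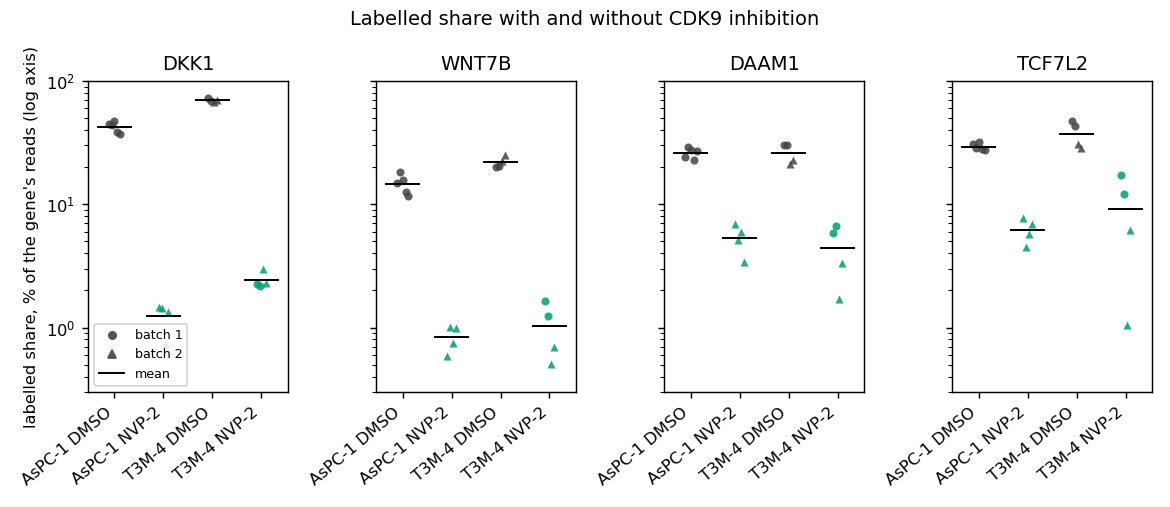
Labelled share (percent of a gene's reads with T>C conversions, log axis) of DKK1, WNT7B, DAAM1 and TCF7L2 in the NVP-2 and DMSO libraries at 4 h of both lines (points are libraries, circles batch 1, triangles batch 2, black lines group means). The DKK1 means are 42.6% with DMSO and 1.25% with NVP-2 for AsPC-1, against 69.9% and 2.43% for T3M-4, and DAAM1 and TCF7L2 keep shares of several percent in most NVP-2 libraries.

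The labelled share of single genes was compared in the other treatments as well, with limma on the log2 odds of a read being labelled. In AsPC-1 with dTAG 5 of 8 members had lower shares, where 37.7% of genes were called, and the median over all genes was −0.33. DKK1 was at −0.32 ± 0.086 (adjusted p = 0.0109), DAAM1 at −0.39 ± 0.11 (adjusted p = 0.0151), WNT7B at −0.40 ± 0.10 (adjusted p = 0.00744), TCF7L2 at −0.39 ± 0.081 (adjusted p = 0.00245) and RNF43 at −0.44 ± 0.15 (adjusted p = 0.029), all close to that median. Whole AsPC-1 libraries had shares of 8.0% ± 0.34 (SD, n = 9) with dTAG and 9.30% ± 0.69 (SD, n = 10) with NEG. DKK1 therefore rose in T>C CPM while the labelled part of its reads went from 37% ± 2.34 (SD, n = 10) with NEG to 32.1% ± 3.01 (SD, n = 9) with dTAG.

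In T3M-4 with dTAG 0 of 9 members were called in the labelled share, where 0.00736% of genes were. With CB-6644 0 members were called in AsPC-1 at 4 h (0.00821% of genes), in T3M-4 (0%) or in AsPC-1 at 12 h (0.00788%), all by limma. At an unadjusted p under 0.05 there were 4, 0 and 0 of 8. The share of all genes at that p was not counted, so nothing about the members is read from these numbers. The AsPC-1 share of DKK1 at 4 h was 33.5, 29.2, 30.6, 32.4 and 33.9% with CB-6644 and 45.1, 44.3, 47.7, 38.8 and 37.1% with DMSO, without overlap, at −0.66 ± 0.14 (adjusted p = 0.083), with a median of −0.27 over all genes. With NVP-2 all 8 members tested were lower in each line, as were 93.6% and 90.4% of genes called. Nothing particular to the members follows from those NVP-2 counts. DKK1 was at −6.53 ± 0.29 in T3M-4, where the median was −3.58. This comparison took part in the choice of DKK1, so its place there is a description and no support for the AsPC-1 value.

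**Figure D5:**
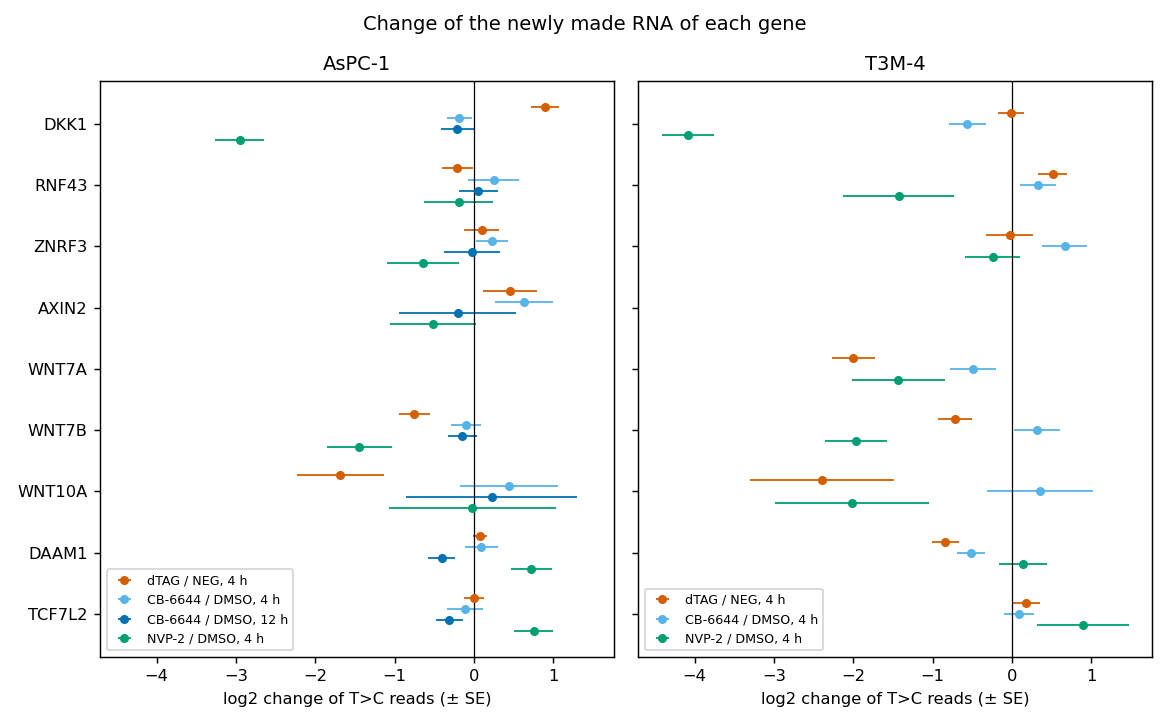
Fitted log2 changes in T>C reads of 9 members in the 7 treatment comparisons, with bars of 1 standard error (a gene missing from a comparison did not pass the filter on low counts, and LEF1 passed in none). DKK1 lies at −2.95 and −4.09 with NVP-2 in AsPC-1 and T3M-4 and at 0.89 with dTAG in AsPC-1, and WNT7A at −2.0 with dTAG in T3M-4.

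Ordered by mean T>C CPM ± SD, DKK1 in AsPC-1 was highest with dTAG (243 ± 93.7), DMSO at 4 h (165 ± 36.4), DMSO at 12 h (149 ± 18.5), CB-6644 at 4 h (144 ± 7.93), NEG (131 ± 15.9), CB-6644 at 12 h (129 ± 31) and NVP-2 (20.3 ± 6.81). The groups between dTAG and NVP-2 lay within their spread of each other, and no neighbours among them were separated. In T3M-4 the DKK1 order was DMSO (159.7 ± 29.6), dTAG (153 ± 14.1), NEG (152 ± 14.8), CB-6644 (108 ± 28.4) and NVP-2 (9.1 ± 2.45), with the first 3 within their spread. DAAM1 in AsPC-1 ran NVP-2 (211 ± 32.9), CB-6644 at 4 h (143 ± 15.3), dTAG (138 ± 17.7), DMSO at 4 h (134 ± 42.9), DMSO at 12 h (134 ± 15.8), NEG (132 ± 13.8) and CB-6644 at 12 h (101 ± 10.5), and its dTAG, CB-6644, DMSO and NEG groups at 4 h were not separated. In T3M-4 DAAM1 ran NVP-2 (468 ± 161), NEG (442 ± 63.7), DMSO (437 ± 48.5), CB-6644 (305 ± 50.1) and dTAG (249 ± 24.3), and there NVP-2 overlapped every other group while NEG and DMSO lay above dTAG in every library.

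Over the 12 group means, 12650 genes were ranked by the Pearson correlation of their log2 T>C CPM with DKK1 and with DAAM1. Those most like DKK1 were PHF13 (0.990), POLR3E (0.990) and TTC9C (0.990), and those most like DAAM1 were LRRC8D (0.978), KRT15 (0.973) and STK24 (0.971). The 12 points share their libraries, their scaling and the large difference of NVP-2 groups from the rest, and for DAAM1 the difference between lines, so the values are a description.

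Of 101 other genes of the pathway, listed with results of these data known, 55 were tested in AsPC-1 with dTAG, where 2 rose and 4 fell (2.4% of all genes called, as above). LGR5 (0.86 ± 0.23, adjusted p = 0.0423), an R-spondin receptor, and CD44 (0.34 ± 0.08, adjusted p = 0.0202), a surface glycoprotein and target gene, rose. LGR6 (−2.1 ± 0.24, adjusted p = 1.72e-05), another R-spondin receptor, the co-repressor TLE3 (−0.68 ± 0.13, adjusted p = 0.00361), the β-catenin cofactor BCL9L (−0.49 ± 0.12, adjusted p = 0.0293) and the cyclin CCND1 (−0.52 ± 0.13, adjusted p = 0.0307) fell. Scaled by all reads, 0 of 56 were higher and 11 lower, at a median of all genes of −0.22. The list's median was 0.061 against 0.028 over all genes.

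In T3M-4 with dTAG 1 of 62 tested pathway genes was called, where 0.834% of all genes were, and 1 of 62 when scaled by all reads. It was the Frizzled receptor FZD10, which was lower (−1.93 ± 0.35, 2.51 to 3.52 against 7.15 to 16.9 T>C CPM). With CB-6644 0 of 55 (AsPC-1, 4 h), 0 of 66 (T3M-4) and 0 of 60 (AsPC-1, 12 h) were called by edgeR, as were 0% of all genes. At an unadjusted p under 0.05 there were 1, 3 and 2, among 482, 569 and 473 of all genes. With NVP-2 in AsPC-1 4 of 54 were higher and 13 lower on the T>C CPM scale, where 12.9% of all genes were higher and 17.6% lower. Scaled by all reads, 0 were higher and 51 lower, at a median of all genes of −3.26. TLE5, a short co-repressor of the TLE family (2.2 ± 0.32), and GSK3B, the kinase of the destruction complex (1.08 ± 0.19), were the higher genes of smallest p, with TNKS, which marks AXIN proteins for destruction (1.49 ± 0.33). The lower ones were SOX9 (−3.0 ± 0.41), MYC (−2.45 ± 0.38) and PYGO2 (−2.08 ± 0.34). Like DKK1, MYC and SOX9 are genes that β-catenin is known to regulate, which is background and not a result here. AXIN2, named above as a readout of the pathway, was at −0.52 ± 0.54 there and was not called.

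In T3M-4 with NVP-2 5 of 60 were higher and 10 lower, where 12.4% of all genes were higher and 14.2% lower. Scaled by all reads, 0 were higher and 53 lower, at a median of all genes of −3.09. The 3 named in each direction were TLE5 (2.66 ± 0.35), RHOA (3.19 ± 0.46) and KREMEN2 (2.83 ± 0.47), and FZD8 (−3.32 ± 0.55), PYGO2 (−2.42 ± 0.47) and MYC (−2.78 ± 0.60). RHOA is the small GTPase that DAAM1 acts on, and KREMEN2 is a receptor for DKK1. Between the lines in DMSO, 14 of 64 were higher in T3M-4 and 19 in AsPC-1, where 48.4% of all genes differed. Higher in T3M-4 were CSNK1E (2.47 ± 0.32, adjusted p = 9.75e-05), the receptor FZD8 (3.51 ± 0.47, adjusted p = 0.000107) and FZD10, at 5.11 to 15.7 T>C CPM there and 0 in every AsPC-1 DMSO library. Higher in AsPC-1 were the receptor ROR1 (−3.2 ± 0.23, adjusted p = 1.43e-06), BMP4 (−4.94 ± 0.41, adjusted p = 3.64e-06) and LGR5, at 10.5 to 27.1 T>C CPM there and 0 in every T3M-4 DMSO library.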

How the data were processed

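The authors aligned QuantSeq 3′ SLAM-seq reads to hg38 with slamdunk at default settings and summed T>C reads and all reads per gene over GENCODE v44 3′ untranslated exons. The deposited values are whole-number counts for 62 libraries in 12 groups, with no spike-in, and no library without 4-thiouridine was used here. PCR duplicates were not separable, so counting limits cover counting error only. One all-reads column (total 13787208) repeated a T>C column of another library and was skipped.

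Groups came from the labels, and experiments were inferred from the digit before the point in replicate numbers. AsPC-1 NVP-2 and DMSO libraries at 4 h share such digits in different batches. An equal digit thus does not show a shared experiment. Counts were compared with edgeR 4.0.16 (R 4.3.3) by the quasi-likelihood test, TMM scaling and filterByExpr, on the compared libraries alone, with Benjamini-Hochberg adjustment over all genes tested and a threshold of 0.05. Standard errors are the absolute log2 change divided by the square root of F. Labelled shares were tested with limma 3.58.1 (trend) on log2((T>C + 0.5)/(all − T>C + 0.5)) for genes with a mean of at least 50 all reads. Alternatives were DESeq2 1.42.0, no filter, scaling by all reads, all reads in place of T>C reads, experiment or batch, the replicate block, other controls, and leaving out libraries. The procedures were tested on simulated data first.

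The members, the 101 other pathway genes and the tests were chosen with earlier results of these data known. All 10 members are named. Of the other pathway genes, up to 3 called genes of smallest p per comparison and direction are named, and CCND1 in addition, which was chosen after its value was seen. For DKK1 and DAAM1 the 3 genes of highest Pearson correlation over the group means are named. The labels do not say whether replicates were separate cultures, so p-values measure the spread between libraries, which may be technical.

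Replicate numbers are shared between groups. The deviations of same-numbered libraries from their group means were correlated. The values were 0.257 to 0.567 in the 10 pairs of AsPC-1 dTAG and NEG, and 0.251 to 0.522 in the 4 of T3M-4. They were 0.207 to 0.468 in the 4 of T3M-4 CB-6644 and DMSO, and 0.280 to 0.692 in the 4 at 12 h. A library correlated best with its own number in 5 of 10, 3 of 4, 1 of 4 and 2 of 4 pairs, in that order. Pairing by number was thus not settled.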

Additional observations from a re-analysis of the deposited data

Results flagged for a closer look

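Of 114 combinations of a member and a group of 4 to 10 libraries, 12 held a library whose T>C CPM lay far from the others by Dixon's criterion. A library with reads beside libraries that all held 0 always meets this criterion. The count is therefore not set against a rate given by chance. DAAM1 in AsPC-1 NEG replicate 1.2 was at 101 T>C CPM and the others at 125 to 148. ZNRF3 in AsPC-1 NVP-2 replicate 1.2 was at 37.3 (80 reads) and the others at 7.51 to 10.7. WNT7A in T3M-4 dTAG replicate 1.1 was at 3.61 (87 reads) and the others at 6.5 to 6.85. WNT10A in AsPC-1 NVP-2 replicate 2.2 was at 5.67 (9 reads) and the others at 0 to 0.469.

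The remaining 8 rested on 6 reads or fewer of genes near 0 in AsPC-1. WNT7A stood at 0.177 in CB-6644 at 4 h replicate 2.1 (2 reads), 0.0668 in DMSO at 4 h replicate 1.2 (1 read), 0.206 in dTAG replicate 3.2 (3 reads), 0.0612 in CB-6644 at 12 h replicate 2 (1 read) and 0.133 in DMSO at 12 h replicate 2 (2 reads), with 0 in the other libraries of each group. LEF1 stood at 0.216 in CB-6644 at 4 h replicate 1.1 (2 reads), 0.365 in NEG replicate 3.4 (6 reads, others 0 to 0.0836) and 0.133 in DMSO at 12 h replicate 3 (2 reads).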

How the results depend on the processing

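Of the member values recomputed under the alternatives, 811 kept their direction and side of the threshold or moved by less than their spread. Among the others, 21 calls were lost and 17 were gained. A further 92 changed sign with no call on either side or, where no test is given, moved by their spread or more. Of these, 21 were in T3M-4 with dTAG and 19 in T3M-4 with NVP-2. The rest were sign changes in tested comparisons. Another 5 reversed, which means a change of sign with a call before or after. The reversed ones were, in AsPC-1 with NVP-2, DAAM1 (−2.45) and TCF7L2 (−2.5) scaled by all reads and TCF7L2 in all reads (−0.029), and in T3M-4 with NVP-2, DAAM1 (−2.75) and TCF7L2 (−1.89) scaled by all reads, each because that scaling moved the median of all genes by about 3 on the log2 scale, except in all reads, where the cause was not tested.

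The number of members called, 2 in AsPC-1 with dTAG (281 genes in all), was 1 in all reads (111 genes), 0 in batch 1 alone (103) and in batch 2 alone (16), where fewer libraries were compared, and 0 to 2 leaving out each experiment (36 to 256). DESeq2 called 478 genes there, scaling by all reads 941, experiment as a term 447 and the replicate block 867. In T3M-4 with dTAG the count of 1 (112 genes) was 2 with DESeq2 (340), 2 with the replicate block (298), 2 with experiment as a term (354), 0 in all reads (3), 0 in batch 1 alone (38), 0 in batch 2 alone (123), and 0 to 1 leaving out each library (22 to 70), the 0 being without dTAG replicate 2.1. With NVP-2 the count of 3 in AsPC-1 (3506 genes) was 8 scaled by all reads (10829), 1 in all reads (1667) and 2 to 4 leaving out each library, and the count of 2 in T3M-4 (3263) was 8 (10680), 1 (807) and 2 to 4, the 4 being without NVP-2 replicate 2.1. Between lines, 4 to 5 members were called leaving out each library, and 6 scaled by all reads. With a mean of at least 500 all reads, 1 member in place of 0 had a called labelled share with CB-6644 in AsPC-1 at 4 h (178 genes). The cause of these moves was not tested.

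Singly, WNT10A with dTAG in AsPC-1 passed under DESeq2 (adjusted p = 0.0488) and scaled by all reads (0.04999), and DAAM1 with NVP-2 there passed under DESeq2 (0.0167) and against NEG of experiment 3 (0.0307) or DMSO at 12 h (0.0398). The replicate block changed no other count of members by more than 1.5 times. Pairing was not shown either in AsPC-1 with CB-6644 at 4 h (correlations of −0.071 to 0.482 over 5 pairs), AsPC-1 with NVP-2 (−0.096 to 0.181 over 4) and T3M-4 with NVP-2 (0.077 to 0.398 over 4). There too not every library correlated best with its own number, and the block gave 0, 2 and 2 members (0, 2370 and 2966 genes). Genes with group means under about 20 T>C reads per library (LEF1, WNT7A in AsPC-1, AXIN2 in T3M-4) are limited by depth. So is WNT10A, whose group means ran from 2 with NVP-2 in T3M-4 to 67.8 with CB-6644 in T3M-4.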
